A study of Mus musculus with 18 samples.

Results

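The 10 circadian clock genes Arntl, Clock, Per1, Per2, Per3, Cry1, Cry2, Nr1d1, Nr1d2 and Dbp were followed through an RNA-seq series on mouse mesenchymal stem cells (MSC), adherent marrow progenitors with the capacity to form adipocytes and osteoblasts. They were chosen by gene symbol, and all 10 were found among the 54347 genes of the count table and carried a value in each of the 18 libraries. The cells came from the marrow of several C57BL/6J mice, male by the labels, and were grown outside the animal, and each of 6 groups held 3 libraries. In the first experiment the cells were left without an actin reagent (control), or received CK666, a small molecule that keeps the Arp2/3 complex from building branched actin. Others received CytoD (cytochalasin D), a fungal toxin that stops actin filaments from growing at their fast end. In the second experiment every group was transfected, with a control siRNA (siControl, which 1 of the labels calls a mock siRNA), with an siRNA against Arp4 (siArp4), or with the Arp4 siRNA followed by CK666 (siArp4+CK666). Arp4 is an actin-related protein of chromatin remodelling complexes and is encoded by Actl6a. All cells were collected a day after the reagents were added, at 1 time point, so for genes whose transcripts rise and fall over the day a shift in phase and a change in level cannot be told apart. In bulk RNA, fewer cells that express a gene and less RNA per cell cannot be told apart either.

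The mammalian clock is a transcriptional feedback loop that runs in nearly every cell, including bone marrow stromal cells. CLOCK and ARNTL (also called BMAL1) bind as a pair to E-box elements and switch on the Per and Cry genes, whose proteins return to the nucleus and inhibit that pair. A second loop is formed by the nuclear receptors REV-ERB alpha and beta (Nr1d1 and Nr1d2), which are E-box targets and repress Arntl through elements they share with the ROR activators. Dbp, another E-box target, is an activator that binds D-box elements in output genes and in Per genes.

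The activators lie on mouse chromosomes 7 and 5 of the GRCm38 build. Arntl covers bases 113207465 to 113314126 of chromosome 7 on the forward strand, and Clock covers bases 76209868 to 76304792 of chromosome 5 on the reverse strand. Of the period genes, which encode the PER inhibitors, Per1 lies at 69095217 to 69109960 on chromosome 11 (forward), Per2 at 91415982 to 91459324 on chromosome 1 (reverse) and Per3 at 151003652 to 151044665 on chromosome 4 (reverse). The cryptochromes, which encode the strongest repressors of the loop, are Cry1 at 85131700 to 85185064 on chromosome 10 and Cry2 at 92403646 to 92434043 on chromosome 2, both reverse. Nr1d1 lies at 98767932 to 98775333 on chromosome 11 and Nr1d2 at 18204054 to 18239127 on chromosome 14, both reverse. Dbp lies at 45705088 to 45710203 on chromosome 7 (forward). All 10 are protein-coding, and values below are summed over the whole gene, with no distinction of exons or isoforms.

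Several of these loci share bases with other genes, and the libraries did not record strand. Of the 2993 exon bases of Dbp, 539 (18.01%) overlap exons of Sphk2 on the opposite strand. Of the 3077 exon bases of Nr1d1, 263 (8.55%) overlap exons of Thra, the thyroid hormone receptor alpha gene, on the opposite strand. Cry2 shares 295 of 6320 exon bases with the non-coding gene D930015M05Rik, which stayed at or below a normalized count of 4.12 in each library. Arntl shares 33 of 7523 exon bases with Gm45355, which was at 0 in all 18 libraries. Per3 lies inside the span of Camta1 on the same strand, with 0 shared exon bases. Reads from shared bases cannot be assigned to 1 strand, so the fold changes of Sphk2 and Thra are given in the same comparisons as those of Dbp and Nr1d1.

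Promoter windows from RefSeq (GRCm38.p6, 250 bases before and 50 after the gene's start) were matched for 9 of the 10 genes by symbol, with 13 windows in all, since some genes have several starts. The exception was Per2. They were searched on both strands for the E-box CACGTG, its variant CACGTT, the REV-ERB/ROR elements TAGGTCA and TGGGTCA, the D-box forms TTATGTAA and TTACGTAA, the cAMP element TGACGTCA and its core TGACG, which is part of the full element. Below are 4 windows that hold such letters and belong to genes whose transcripts changed by more than a log2 of 1 in some comparison, with the letters named for each window in capitals (the short core TGACG is left in lower case) and each window written 5′ to 3′ on the gene's own strand. The Per1 window is chr11:69098699-69098998 on the forward strand, with an E-box 166 bases before the start of that window's transcript, which lies inside the span of the gene given above. The Nr1d1 window is chr11:98775328-98775627 on the reverse strand, with the E-box variant, read on the opposite strand, 28 bases before the start. The Arntl window is chr7:113207261-113207560 on the forward strand, with a REV-ERB/ROR element 30 bases after the start. The Per3 window is chr4:151044616-151044915 on the reverse strand, with a pair of D-boxes 205 and 158 bases before the start.
Per1: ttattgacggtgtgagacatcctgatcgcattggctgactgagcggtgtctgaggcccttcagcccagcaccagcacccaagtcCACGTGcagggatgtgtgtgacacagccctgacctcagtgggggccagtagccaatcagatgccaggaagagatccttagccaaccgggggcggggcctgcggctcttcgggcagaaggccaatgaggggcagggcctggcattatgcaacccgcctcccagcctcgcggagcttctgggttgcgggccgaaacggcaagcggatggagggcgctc
Nr1d1: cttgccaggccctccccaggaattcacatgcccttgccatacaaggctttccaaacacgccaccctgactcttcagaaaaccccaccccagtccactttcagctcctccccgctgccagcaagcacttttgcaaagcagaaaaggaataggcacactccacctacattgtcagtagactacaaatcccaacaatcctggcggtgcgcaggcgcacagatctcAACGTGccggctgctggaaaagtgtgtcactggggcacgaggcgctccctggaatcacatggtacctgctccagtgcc
Arntl: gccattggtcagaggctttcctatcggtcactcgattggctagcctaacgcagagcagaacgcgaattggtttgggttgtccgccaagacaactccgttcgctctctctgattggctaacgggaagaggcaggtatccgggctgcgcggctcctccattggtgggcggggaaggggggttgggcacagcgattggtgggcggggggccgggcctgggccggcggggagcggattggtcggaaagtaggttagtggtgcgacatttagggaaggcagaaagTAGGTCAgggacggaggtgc
Per3: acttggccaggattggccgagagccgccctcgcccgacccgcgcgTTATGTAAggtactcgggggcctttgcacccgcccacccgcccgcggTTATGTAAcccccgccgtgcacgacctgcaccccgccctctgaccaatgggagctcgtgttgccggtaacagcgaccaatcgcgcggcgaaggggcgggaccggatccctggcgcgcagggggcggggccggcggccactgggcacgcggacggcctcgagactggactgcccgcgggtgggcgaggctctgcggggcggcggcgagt
Cry1 held an E-box 60 bases before its start and also the variant, and Cry2 held the variant, while the windows of Clock, Dbp and Nr1d2 held none of these forms. Of all 32851 windows of 300 bases, 7.15% held the E-box, 4.68% the variant, 6.45% a REV-ERB/ROR element, 1.06% a D-box, 1.79% the full cAMP element and 20.8% its core. A match describes the letters in these windows and is not evidence of a bound factor, and elements outside 300 bases were not searched.

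Library totals ran from 18075610 to 24733212 estimated counts, and the 10 clock genes together took the smallest share of the total in siControl replicate 2 and the largest in CK666 replicate 2. The lowest clock gene count was 43.3 (Per2, CK666 replicate 1) and the highest was 2992 (Nr1d2, CK666 replicate 2), so that each of the 10 passed the filter on low values in each comparison. Actl6a had normalized counts of 720.1, 1127 and 840.6 in siControl, 48.9, 57.2 and 19.0 in siArp4, with 9.52, 22.9 and 17.9 when CK666 was added, so that every knockdown library lay below every siControl library. Of 12 mesenchymal stromal markers 9 to 10 reached 10 normalized counts in every library of a group. Thy1 was at 0 throughout, Nt5e was at most 7.88 and Eng ran from 5.26 to 77.6. Among the blood cell markers Cd3e was at 0 and Ptprc and Itgam were at most 1.08, while the macrophage markers Csf1r (12.6 to 186.1) and Cd68 (15.6 to 110.0) were detected in each library and Adgre1 reached 13.0. The summed blood cell markers ran from 43.5 to 237.8, against 67998 to 205903 for the stromal markers, and the endothelial marker Cdh5 was at 0. The stromal markers with the highest levels were Cxcl12 (12207 to 106836) and Col1a1 (18070 to 91537). Some libraries stood apart from others of their group in the balance of long against short transcripts, measured as the median log2 deviation of genes with at least 8 kb of exon minus that of genes under 2 kb. This balance was -1.33 in siControl replicate 2, 0.79 in siArp4+CK666 replicate 1, -0.77 in CK666 replicate 1 and 0.64 in siControl replicate 1, and between -0.45 and 0.35 in the other 14.

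Levels below are normalized counts, that is estimated counts divided by the DESeq2 size factor of the library within its own experiment. Fold changes are log2 values from the DESeq2 Wald test, with the standard error (SE) and a Benjamini-Hochberg adjusted p over all genes tested. A gene was called where the log2 fold change exceeded 1 in size and the adjusted p was below 0.01, and is said to have risen or fallen where the adjusted p alone was below 0.01. That the libraries of a gene did not overlap between groups is a description. The share of all genes without such overlap was not counted.

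In untreated MSC the repressors of the second loop stood highest. Per kilobase of exon, the control means were 357.5 normalized counts for Nr1d1 and 312.6 for Nr1d2, and the libraries of these genes did not overlap. Cry1 (159.1) and Dbp (145.9) followed, and their libraries met at 151.9. Clock came next at 101.1. Cry2 (51.5) and Per1 (48.5) overlapped, Per2 stood at 32.4, and Per3 (24.2) and Arntl (19.0) overlapped at the low end. Clock thus stood above its partner Arntl per kilobase in the control libraries. The median coefficient of variation over the 10 genes was 5.78% in control, 11.8% in CK666, 6.88% in CytoD, 27.7% in siControl, 11.9% in siArp4 and 18.4% in siArp4+CK666.

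**Figure D1:**
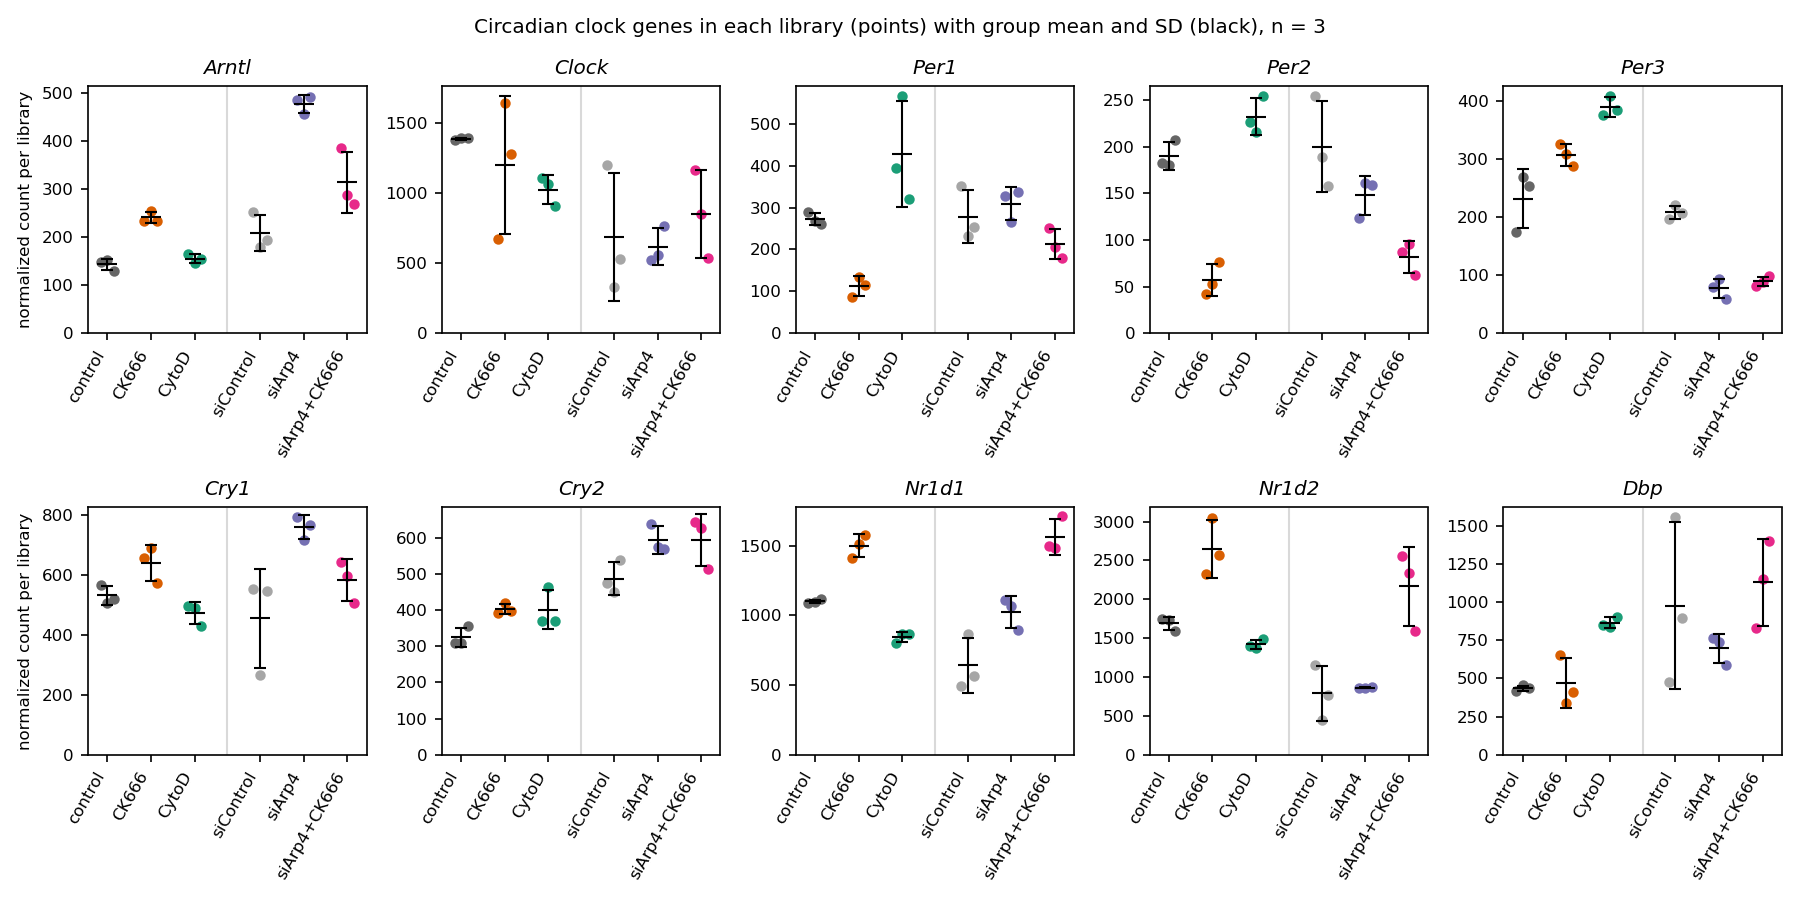
Normalized counts (vertical axes, linear and starting at 0) of the 10 clock genes in each of 18 libraries, grouped along the horizontal axis, with points for libraries and black marks for the mean and SD of 3. Per1 is lowest in CK666, Per2 lies between 42.3 and 95.4 in the 6 libraries that received CK666 and at 123.8 or more in the other 12, Per3 is lowest in siArp4 and siArp4+CK666, and Clock and Dbp spread most within siControl.

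After CK666 the period genes Per1 and Per2 fell, and Arntl and both REV-ERB genes rose. Per2 had normalized counts of 182.8, 180.1 and 207.0 in control and 42.3, 53.0 and 76.3 in CK666. The highest treated library stayed below the lowest control library, and the log2 fold change was -1.73 (SE 0.23, adjusted p = 1.6e-12). Per1 had 290.2, 266.8 and 261.8 in control and 86.5, 134.6 and 114.4 in CK666, again with no overlap, a fall of -1.29 (SE 0.24, adjusted p = 1.1e-06). These 2 genes were called lower and 0 of the 10 were called higher. Of 14597 genes tested, 6.06% were called lower and 4.89% were called higher.

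On the other arm, Nr1d1 rose from 1087, 1098 and 1115 in control to 1413, 1512 and 1577 in CK666, a log2 change of 0.45 (SE 0.09, adjusted p = 1.05e-05). Nr1d2 rose from 1746, 1732 and 1594 to 2321, 3050 and 2568, a change of 0.65 (SE 0.12, adjusted p = 9.19e-07). Arntl, the activator that these receptors repress, rose as well, from 148.0, 151.9 and 129.4 to 233.8, 253.8 and 234.3, by 0.75 (SE 0.16, adjusted p = 3.14e-05). In all 3 genes every CK666 library lay above every control library. In all, 3 clock genes rose and 2 fell by the adjusted p alone, where 15.3% of all genes tested rose and 14.7% fell. Thra, which shares bases with Nr1d1, differed by 0.03 (adjusted p = 0.868).

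The remaining 5 genes did not pass after CK666. The third period gene, Per3, had 174.1, 268.8 and 253.5 in control against 325.2, 308.9 and 287.3 in CK666, the opposite side from Per1 and Per2, with a log2 difference of 0.40 that missed the threshold (95% interval 0.05 to 0.76, adjusted p = 0.0629). Cry1 differed by 0.27 (adjusted p = 0.0864) and Cry2 by 0.31 (adjusted p = 0.0803). Dbp had 420.8, 454.8 and 434.6 in control and 654.3, 341.5 and 409.2 in CK666, a difference of 0.10 with an interval from -0.32 to 0.52. Sphk2, which shares bases with Dbp, rose by 1.197 (adjusted p = 1.83e-16). Camta1, whose span holds Per3, rose by 1.247 (adjusted p = 1.06e-06). Clock had 1377, 1393 and 1392 in control and 674, 1646 and 1283 in CK666, so that the treated libraries fell on both sides of the controls. The low value belonged to replicate 1, the library with the balance of -0.77, and the interval of the Clock difference ran from -0.70 to 0.28. The number of genes called or passing stayed the same without any 1 library. With all 18 libraries in one fit, Nr1d1 (0.43, adjusted p = 0.0507) and Nr1d2 (0.63, adjusted p = 0.0395) no longer passed.

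After CytoD the activator Dbp and the period gene Per3 rose, and Nr1d1 fell. Dbp rose from 420.8, 454.8 and 434.6 in control to 853.4, 838.3 and 905.7 in CytoD, a log2 change of 0.99 (SE 0.21, adjusted p = 2.14e-05), just under the fold limit for a call. Per3 rose from 174.1, 268.8 and 253.5 to 375.2, 408.5 and 384.3, by 0.75 (SE 0.18, adjusted p = 0.000187). Nr1d1 fell from 1087, 1098 and 1115 to 800.3, 866.4 and 868.6, by -0.38 (SE 0.10, adjusted p = 0.000337). None of these groups overlapped. Thra, on the strand opposite Nr1d1, rose by 1.08 in the same comparison (adjusted p = 3.18e-21), from 671.3, 697.2 and 746.1 to 1525, 1465 and 1464. Sphk2, opposite Dbp, differed by 0.20 (adjusted p = 0.267) and Camta1 by 0.53 (adjusted p = 0.0719).

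With CytoD, DESeq2 and edgeR each called 0 of the 10 genes, while 6 had an unadjusted p below 0.05. Among 13717 genes tested, 4.8% were called higher and 4.32% lower. By the adjusted p alone 2 clock genes rose and 1 fell, beside 13.6% and 16% of all genes tested. Per1 had 395.4, 566.3 and 320.4 in CytoD, all above the highest control of 290.2, but with a difference of 0.65 it missed the threshold (SE 0.23, adjusted p = 0.0181). It passed without CytoD replicate 3 (0.82, adjusted p = 0.00372) or without CK666 replicate 1, a library of neither group that shares the fit (adjusted p = 0.00448), and also once the trend with exon length was removed from each library (0.72, adjusted p = 0.00407). Without CytoD replicate 2 the Per1 difference shrank to 0.39. Per2 differed by 0.29 (adjusted p = 0.29), Nr1d2 by -0.25 (adjusted p = 0.089), Arntl by 0.11 (adjusted p = 0.638), Cry1 by -0.17 (adjusted p = 0.312) and Cry2 by 0.31 (adjusted p = 0.0869). Clock had 1105, 1063 and 906.7 in CytoD, below all 3 controls, with a difference of -0.44 that passed only without CK666 replicate 1 (adjusted p = 0.00032, against 0.162 with it). Nr1d1 no longer passed without CytoD replicate 1 (adjusted p = 0.0116) or without control replicate 3 (adjusted p = 0.01), and with all 18 libraries in one fit neither Nr1d1 (adjusted p = 0.102) nor Dbp (adjusted p = 0.0161) passed. Dbp crossed the fold limit without CytoD replicate 2 or control replicate 2, at up to 1.01.

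Set directly against each other, the reagents differed in 7 of the 10 genes. Compared with CytoD, Per2 was lower in CK666 by -2.02 (SE 0.23, adjusted p = 5.02e-17) and Per1 was lower by -1.94 (SE 0.24, adjusted p = 2.64e-14), and both were called. Dbp was also lower, by -0.89 (SE 0.21, adjusted p = 0.000144). Higher in CK666 were Nr1d2 by 0.90 (SE 0.12), Nr1d1 by 0.83 (SE 0.09), Arntl by 0.63 (SE 0.16) and Cry1 by 0.44 (SE 0.13), with adjusted p between 3.63e-17 and 0.00262. Cry1 had 658.2, 690.1 and 572.8 in CK666 and 495.3, 490.8 and 429.7 in CytoD. Of 15038 genes tested, 5.08% were called higher and 6.74% lower, and 16.9% and 14.9% passed in those directions by the adjusted p alone, beside 4 and 3 of the 10 clock genes. The other 3 genes did not pass, with differences of -0.34 for Per3 (adjusted p = 0.112), 0.23 for Clock (adjusted p = 0.503) and 0.0043 for Cry2 (interval -0.28 to 0.29). Beside Nr1d1 and Dbp, the genes that share their bases differed the other way, with Thra at -1.05 (adjusted p = 2.51e-20) and Sphk2 at 0.99 (adjusted p = 9.49e-12). Camta1 was higher in CK666 by 0.72 (adjusted p = 0.00587). Without CK666 replicate 1 Dbp was also called (-1.202) and Clock passed at 0.52 (adjusted p = 0.00012). The Cry1 difference missed the threshold when CK666 replicate 2, or 1 of CytoD replicates 2 and 3, was left out (adjusted p between 0.0130 and 0.0357), and Arntl missed it without CytoD replicate 2 (adjusted p = 0.0125). In the fit of all 18 libraries Dbp (adjusted p = 0.0276) and Cry1 (adjusted p = 0.108) missed it, and Cry1 also did with the length trend removed (0.35, adjusted p = 0.0181).

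**Figure D2:**
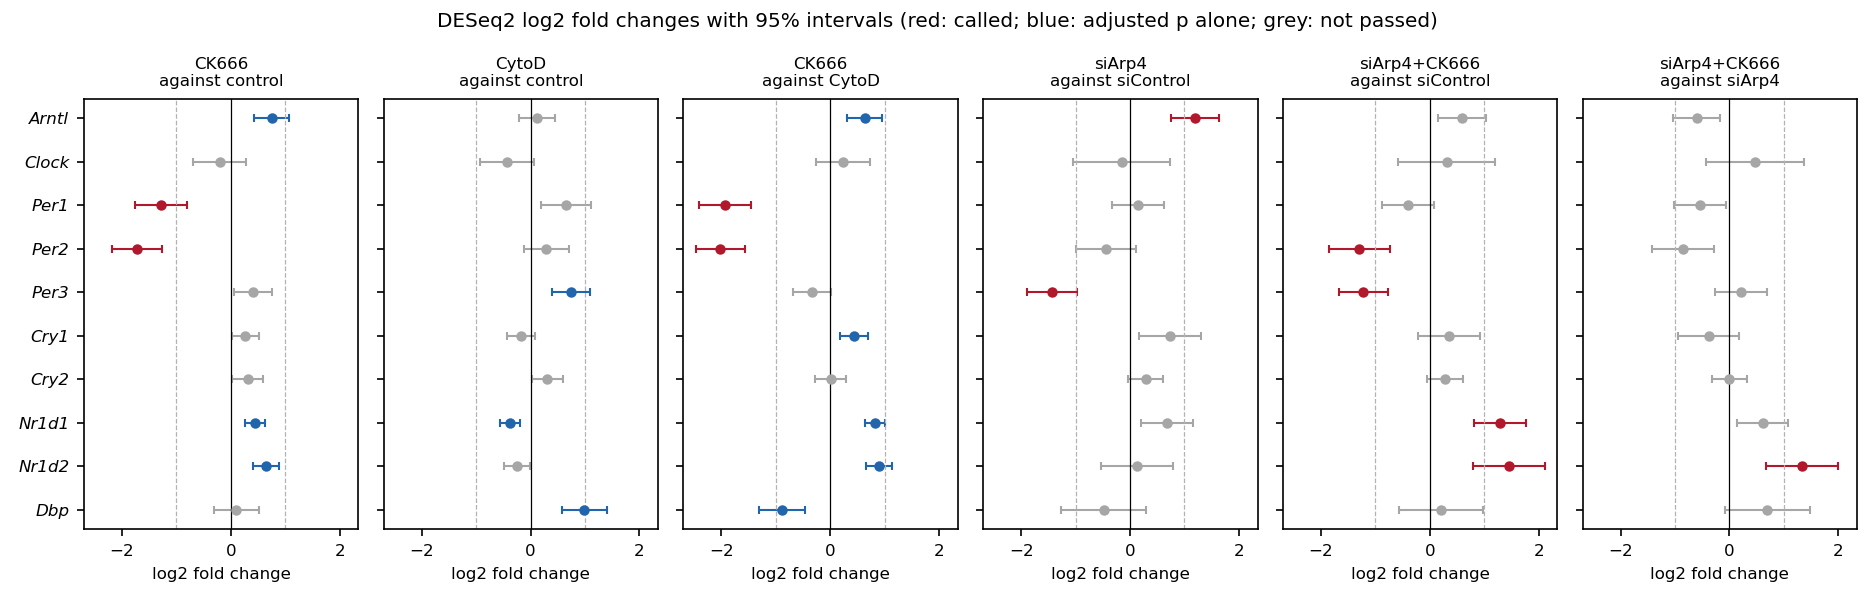
DESeq2 log2 fold changes (horizontal axes) with 95% intervals for the 10 clock genes (vertical axis) in 6 comparisons, with dashed lines at -1 and 1. Per1 and Per2 lie left of -1 in both comparisons of CK666 within the first experiment, while Per3 lies left of -1 in both comparisons with siControl.

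After Arp4 knockdown alone the activator Arntl rose and the period gene Per3 fell. Arntl rose from 251.5, 179.8 and 193.3 in siControl to 484.2, 455.7 and 490.9 in siArp4, a log2 change of 1.19 (SE 0.22, adjusted p = 9.07e-07). Per3 fell from 197.0, 220.1 and 207.3 to 79.2, 92.9 and 59.1, by -1.43 (SE 0.24, adjusted p = 1.81e-08). Neither gene overlapped between the groups, and both kept their call without any 1 library, at 1.09 to 1.35 for Arntl and -1.58 to -1.27 for Per3. So 1 clock gene was called higher and 1 lower, where 6.69% and 9.49% of 15415 genes tested were. By the adjusted p alone the clock genes gave the same counts, beside 11.9% and 13.1% of all genes. Camta1, whose span holds Per3, fell by -2.35 in the same comparison (adjusted p = 4.29e-06), from 222.1, 547.0 and 385.7 to 68.2, 84.2 and 74.1. Thra differed by 0.10 (adjusted p = 0.705) and Sphk2 by -0.15 (adjusted p = 0.75).

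The other 8 genes did not pass after the knockdown alone, among them Clock (-0.16, interval -1.06 to 0.74) and Dbp (-0.49, adjusted p = 0.364). Per2 had 254.0, 188.6 and 157.8 in siControl and 123.8, 160.9 and 159.3 in siArp4 (difference -0.44, adjusted p = 0.225), and Per1 differed by 0.15 (adjusted p = 0.685). Nr1d1 had 491.2, 865.2 and 567.8 in siControl and 1107, 1070 and 892.7 in siArp4, which did not overlap, and its difference of 0.68 just missed the threshold (adjusted p = 0.0184). Without siControl replicate 2, the library with the balance of -1.33, it was 0.94 (adjusted p = 8.08e-07), and it passed at 0.75 with the length trend removed (adjusted p = 8.55e-05). Cry1 had 552.4, 265.3 and 547.3 against 793.3, 715.9 and 768.5, a difference of 0.74 (adjusted p = 0.0331) that passed without siControl replicate 1 (0.89, adjusted p = 0.00673). Without siControl replicate 2, the low library, the Cry1 difference was 0.46. In the fit of all 18 libraries Nr1d1 (0.70, adjusted p = 0.000454) and Cry1 (0.76, adjusted p = 0.000953) both passed. Cry2 differed by 0.29 (adjusted p = 0.18) and Nr1d2 by 0.12 (interval -0.54 to 0.78). Nr1d2 was nearly constant within siArp4, at 852.3, 863.9 and 864.6, and ran from 446.4 to 1150 within siControl.

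With CK666 added to the knockdown, the REV-ERB genes stood above siControl and Per2 and Per3 below it. Nr1d1 rose to 1497, 1484 and 1711, a log2 change of 1.29 against siControl (SE 0.24, adjusted p = 8.14e-07). Nr1d2 rose from 1150, 446.4 and 770.5 in siControl to 2563, 2343 and 1592, by 1.46 (SE 0.34, adjusted p = 8.63e-05). Per2 fell to 86.7, 95.4 and 62.2, by -1.30 (SE 0.29, adjusted p = 3.81e-05), and Per3 to 81.4, 88.7 and 98.0, by -1.22 (SE 0.23, adjusted p = 1.55e-06). None of the 4 overlapped with siControl, and all 4 were called with each library left out in turn. They made 2 genes called higher and 2 lower, beside 8.06% and 12.4% of all genes tested, and the counts by the adjusted p alone were the same, beside 14% and 15.8%. Camta1 was -2.01 lower here as well (adjusted p = 7.88e-05), while Thra differed by -0.33 (adjusted p = 0.136) and Sphk2 by 0.08 (adjusted p = 0.875).

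Arntl in the double treatment had 385.9, 288.1 and 267.7, above all 3 siControl libraries, but the difference of 0.59 missed the threshold (SE 0.22, adjusted p = 0.0249). It passed without siControl replicate 1 (0.75, adjusted p = 0.00275) or with all 18 libraries in one fit (adjusted p = 0.000876). It was smaller without siArp4+CK666 replicate 1, at 0.42, and with the length trend removed, at 0.39 (adjusted p = 0.0285). Per1 had 250.6, 207.0 and 180.2, overlapping siControl, with a difference of -0.39 (interval -0.87 to 0.09). Cry1 differed by 0.35 (adjusted p = 0.346), Cry2 by 0.29 (adjusted p = 0.169), Dbp by 0.21 (adjusted p = 0.719) and Clock by 0.31 (adjusted p = 0.635).

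The step that CK666 added to the knockdown was tested against siArp4 alone, and Nr1d2 was the only gene of the 10 called. It went from 852.3, 863.9 and 864.6 to 2563, 2343 and 1592, a log2 change of 1.33 (SE 0.34, adjusted p = 0.00108), with no overlap between the groups. The size held, between 1.199 and 1.511, with any 1 library left out, but the call did not. Without any 1 of siArp4 replicates 1, 2 and 3 or siArp4+CK666 replicates 1 and 2 the adjusted p was between 0.0132 and 0.0246, and edgeR gave 0.031. Of 14098 genes tested 1.63% were called higher and 4.12% lower, and 3.82% and 6.07% passed by the adjusted p alone. Per2 had 123.8, 160.9 and 159.3 in siArp4 against 86.7, 95.4 and 62.2 with CK666 added, without overlap, with a difference of -0.86 that did not pass (adjusted p = 0.0246). Arntl differed by -0.60 (adjusted p = 0.0426), Nr1d1 by 0.61 (adjusted p = 0.0689) and Per1 by -0.54 (adjusted p = 0.133), which did not pass. Without siControl replicate 2, a library of neither group, Nr1d1 passed at 0.62 (adjusted p = 0.000736). Arntl, Per2 and Nr1d1 all passed with all 18 libraries in one fit (adjusted p = 0.000502, 0.00243 and 0.00592) and with the length trend removed (adjusted p = 1.38e-05, 0.00239 and 0.00237). Per3 differed by 0.22 (interval -0.26 to 0.70) and Cry2 by 0.00 (interval -0.33 to 0.33). Dbp differed by 0.70 (adjusted p = 0.284), Clock by 0.46 (adjusted p = 0.627) and Cry1 by -0.38 (adjusted p = 0.472). Thra differed by -0.43 (adjusted p = 0.092), Sphk2 by 0.23 (adjusted p = 0.756) and Camta1 by 0.33 (adjusted p = 0.771).

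Whether CK666 acted differently in knockdown cells and in untransfected cells was tested as an interaction over all 18 libraries. Arntl was the 1 clock gene that passed. The CK666 change of Arntl in knockdown cells minus that in untransfected cells was -1.36 (SE 0.23, adjusted p = 1.19e-07), with 0.75 in untransfected cells and -0.60 in knockdown cells. It was called with each library left out, between -1.53 and -1.27. Thus 1 of 10 clock genes was called lower and 0 higher, where 2.52% and 1.9% of 13511 genes were, and 4.06% and 3.76% passed by the adjusted p alone. The other 9 did not pass, with intervals of 0.19 to 1.54 for Per2 (0.87, adjusted p = 0.0791), 0.08 to 1.40 for Per1 (0.74, adjusted p = 0.14), -0.01 to 1.36 for Nr1d2 and -0.33 to 0.65 for Nr1d1. Cry1 differed by -0.66 (adjusted p = 0.127) and passed without siControl replicate 2 (adjusted p = 0.000411). Clock was at 0.66, Dbp at 0.60, Cry2 at -0.32 and Per3 at -0.19, with adjusted p between 0.284 and 0.732. Thra was at -0.46 (adjusted p = 0.101), Sphk2 at -0.97 (adjusted p = 0.0425) and Camta1 at -0.91 (adjusted p = 0.304). A group given control siRNA and CK666 was not analysed here, so in this contrast transfection and knockdown cannot be told apart.

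Over the 10 genes as a list the median log2 change was 0.29 after CK666 and 0.20 after CytoD, beside 0.013 and 0.0076 over all genes tested, and 0.12 in CK666 against CytoD, beside -0.026. In the second experiment it was 0.14 in siArp4 and 0.30 in siArp4+CK666 against siControl, beside -0.053 and -0.054, and 0.11 in siArp4+CK666 against siArp4, beside 0.016. For the interaction it was 0.38, beside -0.034, and between the control groups -0.013, beside 0.035. The comparisons within an experiment share libraries, so their values are set side by side here without a count of genes in common.

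The ratio of a REV-ERB transcript to Per2 within a library needs no scaling between libraries, and it is given as a description, since the pair was chosen after their values were seen. Nr1d1 to Per2 was 5.95, 6.10 and 5.38 in control, 33.4, 28.5 and 20.7 in CK666 and 3.53, 4.01 and 3.41 in CytoD. In the second experiment it was 1.93, 4.59 and 3.598 in siControl, 8.94, 6.65 and 5.60 in siArp4. With CK666 added to the knockdown it was 17.3, 15.6 and 27.5. The libraries that received CK666 thus held the 6 highest ratios of the 18, with or without the knockdown. Nr1d2 to Per2 put the same 6 libraries on top, from 24.6 to 57.5, with the other 12 between 2.37 and 9.62. Per1 to Per2, a ratio of genes that both fell after CK666 in the first experiment, kept to between 1.23 and 2.90 over all 18.

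**Figure D3:**
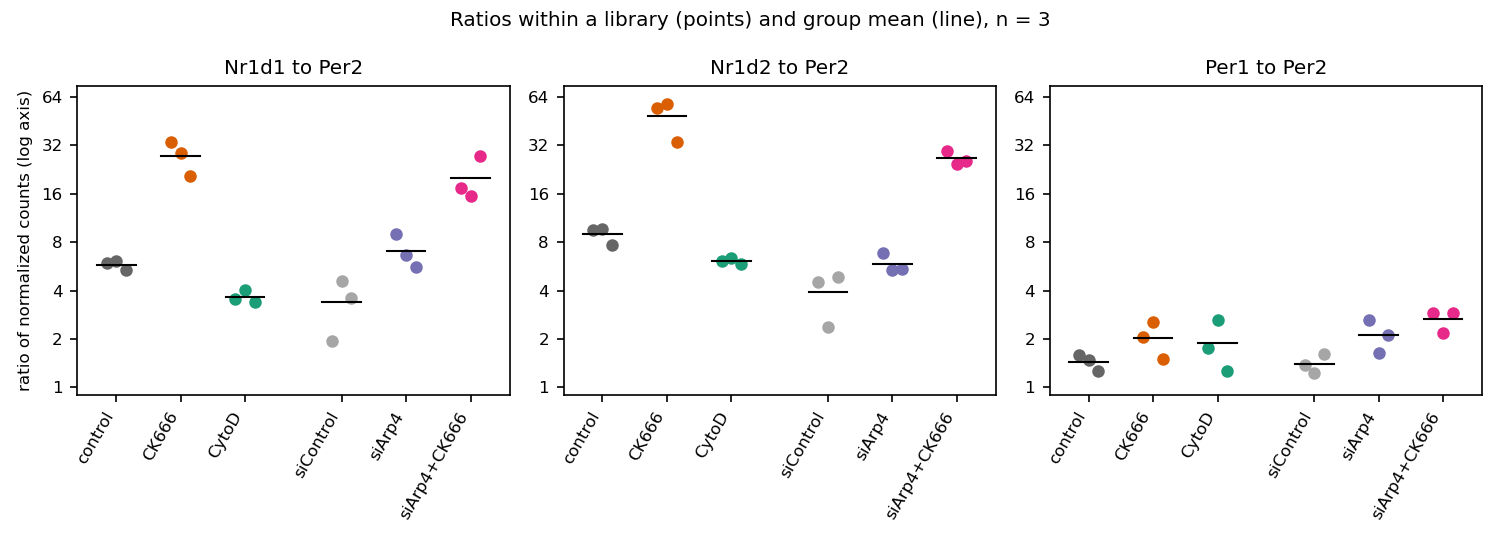
Ratios of normalized counts within each of 18 libraries (points) and the group mean (line), on a log axis shared by 3 panels, with the 6 groups along the horizontal axis. The CK666 and siArp4+CK666 libraries stand above all others in both REV-ERB panels, from 15.6 upward for Nr1d1 to Per2, and not in the Per1 to Per2 panel.

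Clock itself did not pass in any of the 6 comparisons within experiments by DESeq2, and its libraries differed widely within groups. They ran from 328.2 to 1200 in siControl and from 674 to 1646 in CK666, and lay between 1377 and 1393 in control. Clock has the longest exon sum of the 10, at 13727 bases, and its level followed the balance of long against short genes library by library. Libraries of 1 group were most apart in siControl, with replicate 2 at a balance of -1.33 and a Clock deviation of -1.02 from the experiment's mean on the log2 scale, and replicate 1 at 0.64 and 0.85. CK666 replicate 1 stood at -0.77 and -0.79, and CK666 replicate 2 at 0.35 and 0.49. Dbp, with the shortest exon sum of 2993 bases, stood at 0.83 in siControl replicate 2 and at -0.88 in siControl replicate 1, while the 3 CytoD libraries lay at 0.60 to 0.71 with a balance between -0.13 and 0.04. The part of this balance in the results for Clock and Dbp was not tested apart from a fit with the length trend removed in each library, an alternative added after the data were seen. In it the CytoD change of Dbp was 0.9988 (adjusted p = 2.77e-08) and Clock again passed in none of the 6 comparisons, with adjusted p from 0.0814 to 0.888.

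**Figure D4:**
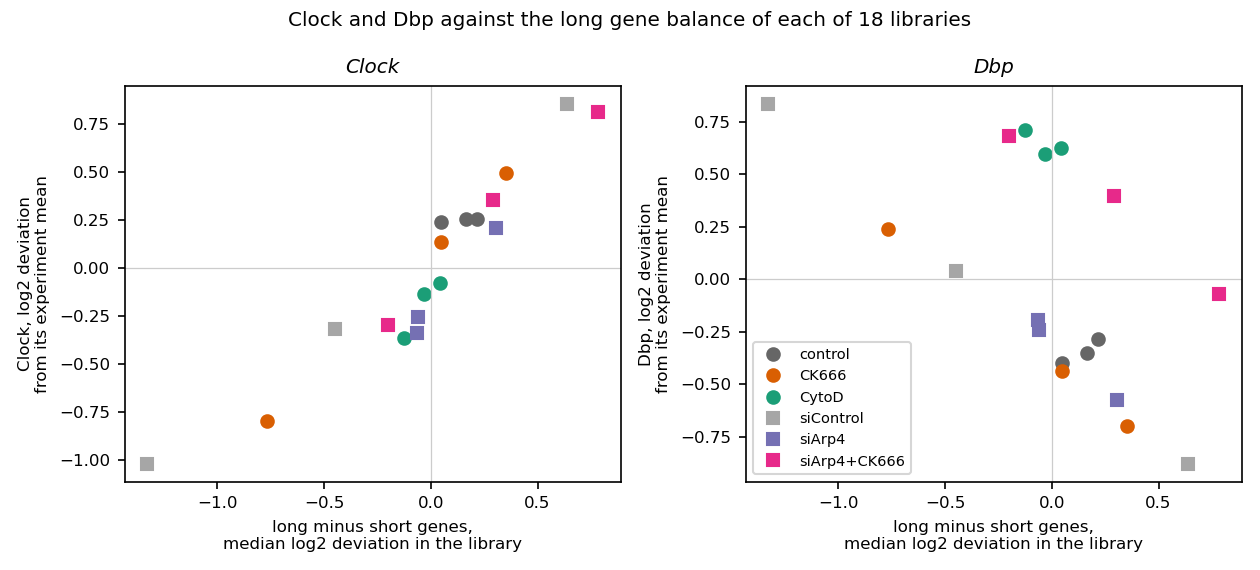
Log2 deviation of Clock (left) and Dbp (right) from the mean of its experiment (vertical axes) against the median log2 deviation of long minus short genes (horizontal axes) in each of 18 libraries, with circles for the first experiment and squares for the second. Clock climbs with the balance from -1.02 to 0.85, and the 3 CytoD libraries lie at 0.60 to 0.71 for Dbp near a balance of 0.

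The control groups of both experiments were set side by side on a common scale. Transfected siControl cells had more Dbp than untreated control cells, at 474.3, 1603 and 900.2 against 408.1, 443.3 and 423.8 normalized counts on the scale of all 18 libraries, a log2 difference of 1.22 (SE 0.34, adjusted p = 0.00105). Nr1d2 was lower, at 1146, 458.9 and 772.0 against 1694, 1689 and 1554, by -1.05 (SE 0.25, adjusted p = 9.37e-05). These made 1 clock gene called higher and 1 lower, beside 14.1% and 10.1% of 14491 genes tested. Nr1d1 was lower by -0.73 (adjusted p = 0.000184), Arntl higher by 0.60 (adjusted p = 0.00115) and Cry2 higher by 0.64 (adjusted p = 7.19e-06), so that 3 passed higher and 2 lower by the adjusted p alone, beside 21.7% and 20.4% of all genes. Per1, Per2, Per3 and Cry1 differed by 0.08, 0.13, -0.11 and -0.17, with adjusted p of at least 0.501. Without siControl replicate 2 the Dbp difference was 0.69 and did not pass (adjusted p = 0.0458) and that of Nr1d2 was -0.78, while Nr1d1 crossed the fold limit at -1.018 and was the 1 clock gene called. With the length trend removed both passed but were not called, at 0.94 for Dbp (adjusted p = 0.00162) and -0.90 for Nr1d2 (adjusted p = 8.58e-05). Clock differed by -0.97 (adjusted p = 0.0274), which did not pass. Its difference was -1.63 without siControl replicate 1 (adjusted p = 4.64e-06) and -0.65 without siControl replicate 2. With the length trend removed Clock differed by -0.43 (adjusted p = 0.144). Arntl missed the threshold without siControl replicate 1 or control replicate 3 (adjusted p = 0.0225 and 0.015). Sphk2, opposite Dbp, was at 399.2, 994.0 and 573.6 in siControl and 364.0, 328.5 and 375.4 in control (0.88, adjusted p = 0.00113), and Thra, opposite Nr1d1, was higher by 0.82 (adjusted p = 2e-08). Camta1 was called higher in siControl, at 221.3, 562.3 and 386.5 against 72.2, 68.4 and 66.6 (2.495, adjusted p = 6.13e-10). Transfection and every other difference between the experiments cannot be told apart here.

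Beyond the 10 genes, 15 partners and loop genes of the clock were tested. After CK666 3 were called higher and 3 lower, and 5 rose and 4 fell by the adjusted p alone. Over all genes tested 4.89% were called higher and 6.06% lower, and 15.3% rose and 14.7% fell. Called higher were Nfil3 (1.28), the repressor that competes with Dbp for D-boxes, Ciart (1.14), a repressor of the CLOCK and ARNTL pair, and Rorb (1.06), a ROR receptor. Called lower were Timeless (-1.68) and Wee1 (-1.06), which also act in DNA replication and at entry into mitosis, and Bhlhe40 (-1.01), an E-box repressor. After CytoD only Timeless was called, at -1.01, where 4.8% of all genes were called higher and 4.32% lower. By the adjusted p alone 3 genes rose and 3 fell, beside 13.6% and 16% of all genes. Ciart was among the falls, from 60.9, 100.3 and 98.3 in control to 42.5, 38.7 and 49.5, so that it was higher in CK666 than in CytoD by 2.13 (adjusted p = 2.72e-13). Tef, a D-box activator related to Dbp, was the other called gene of that comparison, at -1.02, where 5.08% of all genes were called higher and 6.74% lower. By the adjusted p alone 2 genes were higher and 3 lower, beside 16.9% and 14.9%. The median log2 change of the list was 0.33 after CK666 and 0.07 after CytoD, beside 0.013 and 0.0076 over all genes tested.

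In the second experiment Rora (1.18), a ROR activator of Arntl, Bhlhe40 (1.06) and Nfil3 (1.05) were called higher after the knockdown and Rorb (-1.67) and Bhlhe41 (-1.43) lower, where 6.69% and 9.49% of all genes were called. By the adjusted p alone 3 rose and 3 fell, beside 11.9% and 13.1%. In siArp4+CK666 against siControl Nfil3 (1.77), Cipc (1.54), which encodes an inhibitor of CLOCK, and Rora (1.26) were called higher and Timeless (-1.86) lower, where 8.06% and 12.4% of all genes were, with 4 rising and 2 falling, beside 14% and 15.8%. Against siArp4 Rorb (1.86) was called higher and Timeless (-1.42) lower, where 1.63% and 4.12% of all genes were, with 5 rising and 1 falling, beside 3.82% and 6.07%. Rorb counts were low, at 38.7, 21.6 and 21.0 in siArp4 against 97.3, 99.2 and 102.2 with CK666 added. In the interaction Tef was called at 1.22 (adjusted p = 3e-09), where 1.9% of all genes were called higher and 2.52% lower. By the adjusted p alone 3 of the list passed higher and 0 lower, beside 3.76% and 4.06%. In siControl against control Timeless (-1.23) was called lower, where 10.1% of all genes were called lower and 14.1% higher. By the adjusted p alone 3 of the list passed lower and 0 higher, beside 20.4% and 21.7%.

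**Figure D5:**
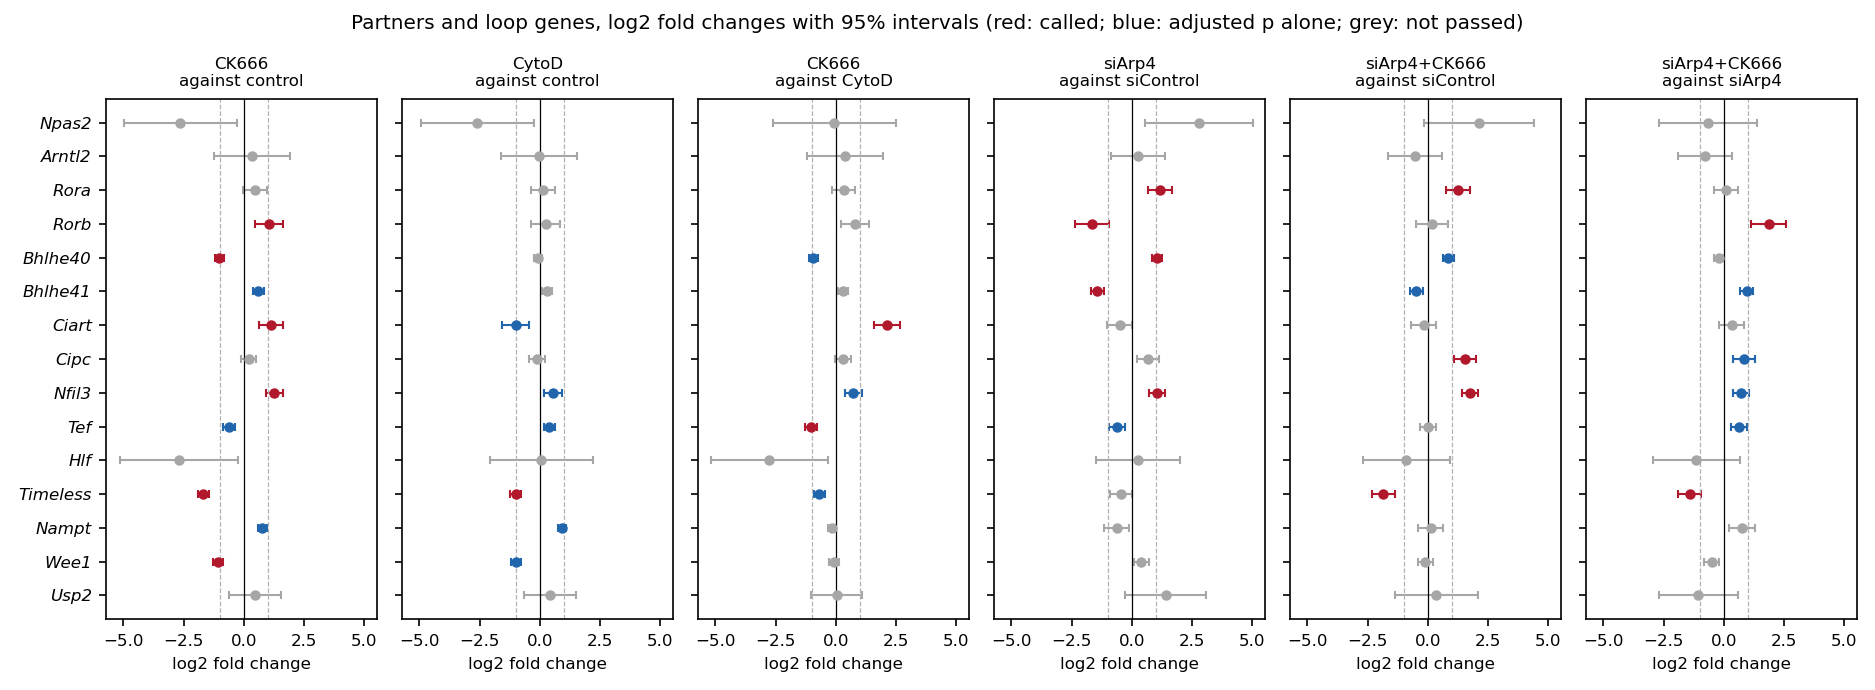
DESeq2 log2 fold changes (horizontal axes) with 95% intervals for 15 partners and loop genes (vertical axis) in 6 comparisons, in red where called, in blue where the adjusted p alone passed and in grey otherwise. Bhlhe40 lies at -1.01 after CK666 and at 1.06 after Arp4 knockdown, and Timeless lies left of 0 in all 6 panels.

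A further list held 15 kinases, ubiquitin ligases and other regulators of PER and CRY stability. Prkaa2, a catalytic subunit of the AMP-activated kinase, which marks CRY1 for destruction, was called higher after CK666 (2.16, adjusted p = 1.26e-10), against CytoD (1.81) and in siArp4+CK666 against siControl (2.72, adjusted p = 4.09e-06). Of all genes tested, 4.89%, 5.08% and 8.06% were called higher in these comparisons. Prkaa2 had normalized counts of 49.3, 62.3 and 35.2 in control and 148.3, 271.2 and 238.1 in CK666. Fbxl21, a ligase subunit for CRY proteins, was called lower in CK666 than in CytoD (-1.94), at counts between 7.14 and 54.2, where 6.74% of all genes were called lower. By the adjusted p alone 1 rose and 1 fell after CK666, where 15.3% and 14.7% of all genes did. After CytoD 3 rose and 2 fell, beside 13.6% and 16% of all genes. Between CK666 and CytoD 3 were higher and 3 lower, beside 16.9% and 14.9%, and in siArp4+CK666 against siControl 1 rose and 0 fell, beside 14% and 15.8%. For siArp4 against siControl and siArp4+CK666 against siArp4 0 of 15 passed by DESeq2, with 3 at an unadjusted p below 0.05 in each, and edgeR was not counted for this list. Over all genes 11.9% rose and 13.1% fell in the former comparison and 3.82% and 6.07% in the latter. In the interaction 1 passed higher and 0 lower, beside 3.76% and 4.06%. Between the control groups 1 was higher and 5 lower by the adjusted p alone, beside 21.7% and 20.4%. Prkaa1 (-1.31), Ube3a (-1.13) and Sirt1 (-1.01) were called lower, where 10.1% of all genes were called lower and 14.1% higher.

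As a description of patterns across the series, genes averaging at least 100 normalized counts were ranked by Pearson's r with Per2, Nr1d1 and Dbp over the 18 libraries after each experiment's mean was subtracted, on log2(count + 1). The points share treatments and library makeup, and 10319 genes were compared. Nearest to Per2 were Wipi1 (0.97), Sh3bp5 (0.96) and Angpt1 (0.95). Nearest to Nr1d1 were Otud3, Pak1ip1 and Rcc2 (each 0.96), and nearest to Dbp were Mgp (0.99), Cst3 (0.96) and Lgmn (0.94). Among the 10 genes themselves the highest r was 0.86 for Per1 with Per2, followed by 0.81 for Arntl with Cry1, and the lowest was -0.77 for Per2 with Nr1d1.

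Stromal and adipocyte markers both moved with the groups and are given beside the clock genes. The summed level of the 12 stromal markers ran from 135268 to 142203 in control, 67998 to 77763 in CK666 and 196412 to 205903 in CytoD, without overlap. In the second experiment it ran from 96312 to 144377 in siControl, 129708 to 142344 in siArp4 and 72406 to 83164 in siArp4+CK666. The summed level of Adipoq, Plin1, Cidec and Fabp4, on the scale of all 18 libraries, ran from 896 to 905.7 in control, 1654 to 2469 in CK666, 2213 to 2566 in CytoD, 2148 to 3012 in siControl, 1191 to 1356 in siArp4 and 3523 to 4315 in siArp4+CK666. Fabp4 ran from 780.6 to 4145 and Adipoq from 4.43 to 641.5 over the 18 libraries. Of the osteoblast markers Ibsp was at 0 in every library, and the sum of Bglap, Sp7, Ibsp and Alpl was at most 63.3, in CytoD. The part of these cell states in the clock gene results was not tested.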

How the data were processed

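RNA was sequenced from 18 libraries of mouse MSC, 3 for each of 6 groups, from separate preparations according to the study's methods. The deposited table holds estimated counts per gene, which the authors made with Salmon 1.2.1 at default settings against GENCODE vM25 on GRCm38 and did not normalize. How transcripts were summed to genes is not given in the sources used here. Every column of the table belonged to a sample. The RNA was sequenced without strand, so genes that share bases on opposite strands cannot be separated.

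Estimated counts were rounded to whole numbers and tested with DESeq2 1.42.0 (R 4.3.3) by the Wald test at default settings, two-sided, with independent filtering at 0.01. Each experiment was fitted on its 9 libraries, and the interaction and the comparison of the control groups on all 18. P-values were Benjamini-Hochberg adjusted over all genes tested in a comparison, and 8 comparisons were made. Intervals are 95% Wald intervals of the log2 fold change, from its SE, and reflect the spread between libraries only. According to the study, a primary cell line made from the mice was used throughout, so differences between animals are not covered. The same steps recovered planted changes in simulated counts drawn with the spread that DESeq2 itself had fitted. The planted changes were larger than most reported here, and the balance of long against short genes was not simulated. Gene identifiers were matched without their version to GENCODE vM21 for 54094 of 54347 genes (253 had no match) and gave symbols, exon lengths and positions. Levels of different genes were compared per kilobase of exon only. The tables and figures were made with Python 3.11.15, pandas 2.3.3 and matplotlib 3.10.9.

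The 10 genes and the lists were chosen with earlier results of these data known. All 10 clock genes are named in every comparison. Genes of the 15 partners and loop genes and of the 15 regulators of PER and CRY stability are named where called, and the 3 genes most like Per2, Nr1d1 and Dbp are named by Pearson's r. The settings varied were edgeR 4.0.16 (quasi-likelihood test), TMM size factors, a filter of at least 10 counts in at least 3 libraries, a replicate block, all 18 libraries in one fit, each library left out in turn and, chosen after seeing the data, removal of the trend of each library with exon length (lowess span 0.3). Replicate numbers were checked for pairing. Over the 18 pairs of libraries with the same number in groups of 1 experiment, the correlation of their deviations from the group means ran from -0.60 to 0.78 and exceeded 0.1 in 5, so the numbers were not taken to pair the samples. Replicates differed by more than counting noise, with a chi-square per degree of freedom of at least 6.80 in each pair.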

Additional observations from a re-analysis of the deposited data

Results flagged for a closer look

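The effect of CK666 on Arntl differed between knockdown cells and untransfected cells. The difference of the effects was tested as an interaction and was -1.36 on the log2 scale (SE 0.23, DESeq2 adjusted p = 1.19e-07). All 3 CK666 libraries lay above all 3 control libraries for Arntl, while all 3 siArp4+CK666 libraries lay below all 3 siArp4 libraries.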

How the results depend on the processing

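Over the alternatives that kept all libraries, 441 gene results kept their direction and side of the threshold, 8 lost and 11 gained significance, and 0 reversed. With 1 library left out the numbers were 876, 14 and 10, again with 0 reversed. A change of sign in a gene that passed in neither setting (26 cases) was counted as unchanged. With all 18 libraries in one fit the number of clock genes passing by the adjusted p alone went from 5 to 3 in CK666 against control, from 3 to 1 in CytoD against control, from 2 to 4 in siArp4 against siControl and from 1 to 4 in siArp4+CK666 against siArp4. With the exon length trend removed the last also went to 4, and the number called in siControl against control went from 2 to 0. By edgeR 0 clock genes were called and 0 passed in siArp4+CK666 against siArp4, where 5 had an unadjusted p below 0.05 by DESeq2. Over all genes, edgeR called 466 against 811 there and 384 against 597 in the interaction. The cause of these shifts was not tested.

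With 1 library left out, CytoD against control had 0 to 1 genes called and 2 to 5 passing, siArp4+CK666 against siArp4 had 0 to 1 called and 0 to 2 passing, the interaction had 1 to 2 passing, and siControl against control had 1 to 3 called. With the replicate block the counts of clock genes called and passing were 2 and 5 in CK666 against control, 0 and 3 in CytoD against control, 2 and 7 in CK666 against CytoD, 2 and 2 in siArp4 against siControl, 4 and 4 in siArp4+CK666 against siControl, 1 and 1 in siArp4+CK666 against siArp4, 1 and 1 in the interaction and 2 and 5 between the control groups, the same as without it. The smallest count of a clock gene was 43.3, in CK666 replicate 1 for Per2, where counting error weighs most.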
